A study of Mus musculus with 12 samples.

Results

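The 10 genes described here, Hmox1, Nqo1, Gclc, Gclm, Slc7a11, Gsr, Txnrd1, Srxn1, Prdx1 and Osgin1, are targets of NRF2 in the antioxidant response and were chosen by symbol from the 27179 genes of the count table. Each symbol matched 1 gene of the table, and all 10 passed the filter on low counts that left 12910 genes for testing. RNA came from MC38-idAdpgkG cells, a mouse colon carcinoma line (MC38, strain C57BL/6) that stably carries a doxycycline-inducible and degradable form of Adpgk(R304M), a mutated ADP-dependent glucokinase used as a neoantigen, fused to turboGFP. Every culture received mouse interferon-gamma at 20 ng/mL, controls included. In the control group nothing else was added over 51 h, and in the doxycycline group 1 µg/mL doxycycline, which switches the transgene on, was present throughout the 51 h. dTAG-13 is a degrader molecule that brings a tagged protein to a ubiquitin ligase. In the dTAG-13 group, the cells were given 1 µM dTAG-13 over the final 3 of the 51 h, and the doxycycline plus dTAG-13 group had doxycycline for 51 h and dTAG-13 over the final 3 h. Each group was 1 culture sequenced as 3 technical replicates, so every error and p-value here covers the spread between libraries of a culture and not between cultures. Gene coordinates are those of whole protein-coding genes in mm10. The labels do not say whether the line is a single clone.

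NRF2, encoded by Nfe2l2, is a transcription factor that is held at a low level by KEAP1, an adaptor that presents it to a CUL3 and RBX1 ubiquitin ligase. Oxidants and electrophiles block this removal, and NRF2 then pairs with small MAF proteins at antioxidant response elements, a position that the repressor BACH1 can also take. Its targets make and recycle glutathione and thioredoxin, reduce quinones and break down heme. Tumour cells often use them to tolerate oxidative stress.

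RefSeq promoter windows (GRCm38.p6, the same assembly as mm10) were matched for 7 of the 10 genes, all but Hmox1, Gclc and Gsr. The core of the antioxidant response element was searched as TGACNNNGC on both strands, from 250 bases before to 50 bases after each annotated start. It was found in 4 of the 7 genes, against 3781 of 27025 genes with a window (14%), or 4071 of 32851 windows (12.4%). In the 250 bases before the start alone, it was found in 3 of the 7 genes and in 11.5% of genes. Prdx1 and Nqo1 are shown because they were the members called higher in each of the 4 pairwise comparisons below. The sequences are the 250 bases before the start, 5′ to 3′ on the strand of the gene, with the match in capitals.
Prdx1 promoter, chr4:116685349-116685598, plus strand: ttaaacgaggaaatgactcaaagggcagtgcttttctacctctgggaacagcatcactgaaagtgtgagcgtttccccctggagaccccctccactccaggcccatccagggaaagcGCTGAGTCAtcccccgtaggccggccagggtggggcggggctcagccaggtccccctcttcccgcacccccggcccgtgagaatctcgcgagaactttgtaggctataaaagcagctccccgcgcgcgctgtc
Nqo1 promoter, chr8:107403206-107403455, minus strand: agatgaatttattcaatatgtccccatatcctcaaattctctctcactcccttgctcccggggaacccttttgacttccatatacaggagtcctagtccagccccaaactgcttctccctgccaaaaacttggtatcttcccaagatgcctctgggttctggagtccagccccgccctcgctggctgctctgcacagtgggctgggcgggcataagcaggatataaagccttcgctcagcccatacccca
The Prdx1 window held 1 match, GCTGAGTCA, which is the element on the opposite strand, at 133 to 125 bases before the start. It overlapped the AP-1 type sequence TGANTCA, which was present in 7.81% of all windows. The Nqo1 window held no match, which says only that these letters are not in this window. Gclm had GCACCGTCA at chr3:122245423-122245431, Txnrd1 had GCTTTGTCA at chr10:82859114-82859122 in the second of its 3 windows, and Srxn1 had GCTAGGTCA at chr2:152105552-152105560, after its start. None was found in the single windows of Osgin1 and Slc7a11, which again says only that these letters are not there. Other forms of the element were not searched, so any of the windows may hold sites that are not listed here.

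The libraries held 22165538 to 32809573 counts, and scaling factors from the trimmed mean of M values (TMM) ran from 0.9647 to 1.0349. Adpgk, the gene of the transgene, was at 157.6 to 184.9 CPM (the read count normalised to the TMM-scaled library size) in the 6 libraries without doxycycline and at 1316 to 1379 CPM in the 6 with it. Of 9 epithelial and colon carcinoma markers none passed the filter on low counts, and Epcam and Cdx2 had no read in any library. Their summed level was 0.282 to 0.939 CPM. Of 6 fibroblast markers, Dcn, Pdgfra and Pdgfrb passed, at means of 164, 162 and 6.5 CPM. Col1a1, Col1a2 and Thy1 did not, with at most 0.351 CPM in any library. From control to doxycycline, the mean of Dcn went from 163.7 to 142.7 CPM and that of Pdgfra from 157.4 to 189.8 CPM. The summed level of the 6 was 299 to 361 CPM. That sum was 299 to 316 CPM with doxycycline plus dTAG-13 and 320 to 361 CPM in the other groups, and its part in the results below was not tested. Leukocyte markers summed to at most 1.53 CPM and endothelial markers to at most 4.15 CPM.

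The members differed widely in level. Per kilobase of the longest GENCODE transcript, the mean over the 12 libraries was 223.8 CPM per kilobase for Prdx1 (range 167.2 to 282.7), which reduces hydrogen peroxide. Hmox1, which breaks down heme, followed at 199.2 (149.9 to 273.6), and Txnrd1, which reduces thioredoxin, at 150.9 (137.1 to 165.8). The range of Hmox1 overlapped those of Prdx1 and Txnrd1, while Prdx1 and Txnrd1 did not overlap each other. Srxn1, which reactivates over-oxidised peroxiredoxins, was at 92.2 CPM per kilobase, and Gsr, which regenerates reduced glutathione, at 69.8. The subunits of the enzyme that limits glutathione synthesis were lower, with 22.1 for the modifier subunit Gclm and 16.2 for the catalytic subunit Gclc, and ranges that did not overlap. Slc7a11, the cystine importer that supplies the cysteine of glutathione, was at 8.09. Nqo1, a quinone reductase, was at 4.77 (2.47 to 7.03), and Osgin1, a growth inhibitor induced by oxidative stress, at 2.82 (2.04 to 3.45), with overlapping ranges. Nqo1 rested on 108 to 294 reads per library and Osgin1 on 124 to 202, while each of the other 8 had at least 1166 reads in every library.

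**Figure D1:**
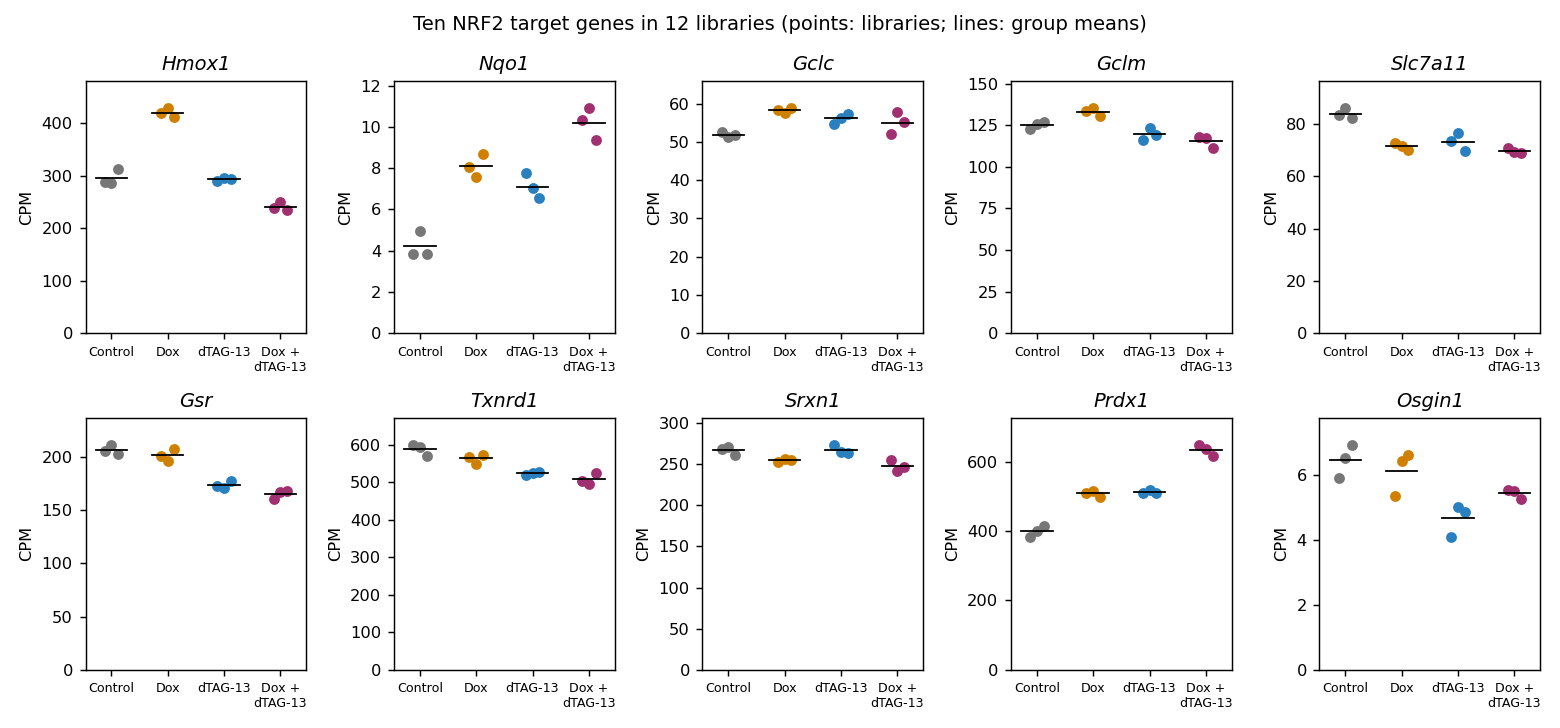
Normalised read counts (CPM, vertical axes from 0) of the 10 members in the 12 libraries, with points for libraries and lines for the means of 3 libraries. Hmox1 was highest with doxycycline alone and lowest with doxycycline plus dTAG-13, while Prdx1 and Nqo1 were lowest in control and highest with doxycycline plus dTAG-13.

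Each group difference was tested with the quasi-likelihood F test of edgeR over all 12910 genes, and a gene was called at a Benjamini-Hochberg adjusted p under 0.05. Doxycycline against control compared cells given the drug, with the transgene switched on, with control cells. dTAG-13 was compared with its absence in cells without and with doxycycline. All groups were of the line that carries the transgene, so effects of doxycycline itself and of the transgene cannot be told apart. With doxycycline alone, 8 of the 10 members were called (5 without control replicate 1), 5 higher and 3 lower, where 33.5% of all tested genes were called, 14.8% higher and 18.7% lower. With dTAG-13 against control, 7 were called, 3 higher and 4 lower, against 62.1% of all genes, 30% higher and 32.1% lower. With dTAG-13 added to doxycycline, 6 were called, 2 higher and 4 lower, against 64.1%, 30.7% higher and 33.4% lower. The counts for dTAG-13 are thus near the share of all genes. With doxycycline among dTAG-13 cells, 4 were called, 2 in each direction, against 20.4%, 10.7% higher and 9.64% lower. The libraries of the groups did not overlap for 7, 7, 6 and 6 members in these comparisons, against 43.9%, 65.5%, 67.2% and 34.3% of all genes. The median log2 fold change of the members was 0.027, -0.037, -0.115 and -0.047 in that order, beside -0.01, 0.019, 0.003 and -0.001 for all genes, and members lay on either side of 0 in each comparison. The doxycycline median was -0.013 after correcting for length and GC and 0.063 if scaling used library size only, and the dTAG-13 median was 0.055 with the latter. The median for dTAG-13 added to doxycycline was -0.059 after the correction. Doxycycline against control and dTAG-13 against control use the same control libraries, and the comparisons of the cells given both agents share that group.

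**Figure D2:**
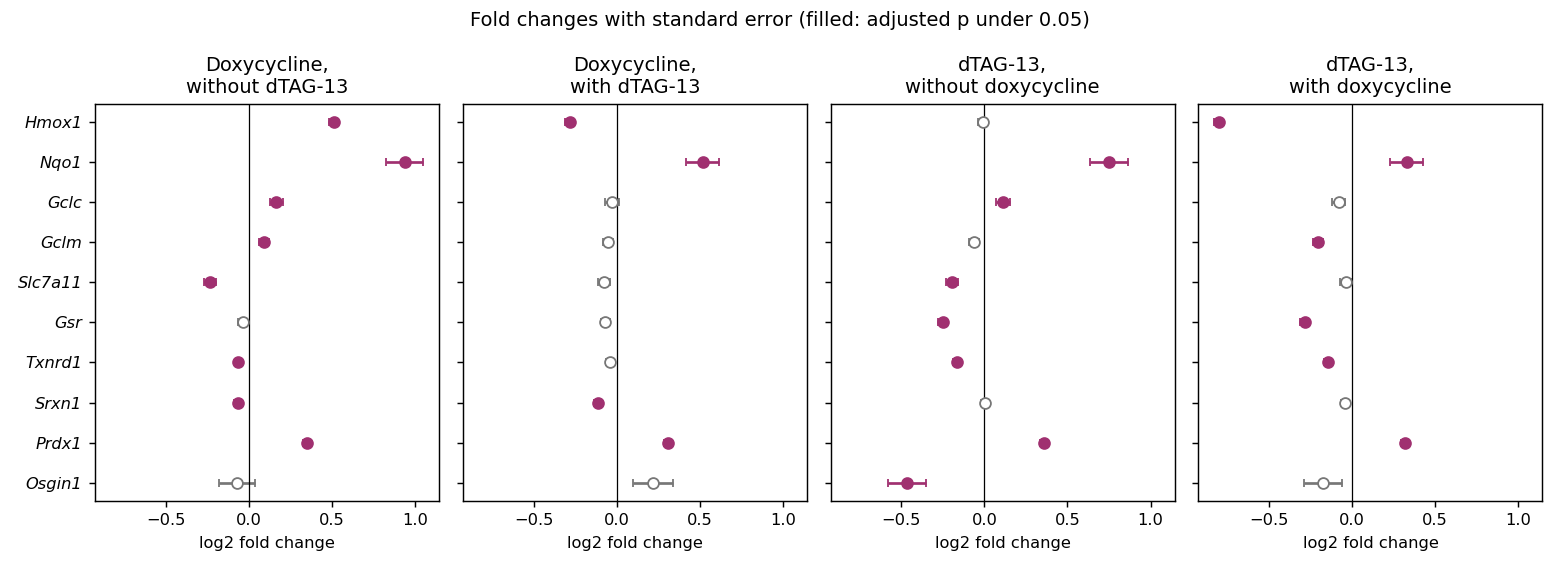
Log2 fold changes (horizontal axes) of the 10 members for doxycycline and for dTAG-13, each without and with the other agent; bars are standard errors and filled points are called at an adjusted p under 0.05. Hmox1 lies at 0.51 for doxycycline without dTAG-13 and at -0.28 with it, while Prdx1 lies between 0.31 and 0.36 in all 4 panels.

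Hmox1 (Entrez 15368, chr8:75093618-75100593) rose with doxycycline and fell below control when dTAG-13 was added to it. Its levels were 288.5, 285.4 and 312.0 CPM in control, 419.9, 429.2 and 412.9 with doxycycline, 290.9, 295.3 and 293.4 with dTAG-13, and 238.5, 249.4 and 235.2 with both agents. Every doxycycline library was above every library of the other groups, and every library with both agents was below all others. The rise with doxycycline was 1.42-fold (log2 0.51, SE 0.0272, edgeR adjusted p 1.58e-17). On addition of dTAG-13 to doxycycline, Hmox1 fell by 0.80 on the log2 scale (SE 0.0276, adjusted p 5.83e-24), to 0.573 of its level. Without doxycycline, dTAG-13 gave -0.01 (SE 0.0274, adjusted p 0.771). That last value was 0.082 and called with scaling by library size only, and -0.123 and called once fold changes were corrected for the length and GC content of transcripts, so its sign is not settled. The effect of dTAG-13 with doxycycline minus its effect without it was -0.79 (SE 0.0389, adjusted p 4.95e-18), and it ran from -0.829 to -0.771 when single libraries were left out. Among dTAG-13 cells, doxycycline went with a fall of Hmox1, at -0.28 (SE 0.0278, adjusted p 4.25e-10).

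Nqo1 (Entrez 18104, chr8:107388225-107403205) was higher in each group with an agent than in control. It was at 3.86, 4.96 and 3.83 CPM in control, 8.06, 7.57 and 8.70 with doxycycline, 7.74, 7.02 and 6.54 with dTAG-13, and 10.3, 10.9 and 9.38 with both. No treated library overlapped the control libraries, whereas the doxycycline and dTAG-13 libraries overlapped each other. Doxycycline raised it 1.92-fold (log2 0.94, SE 0.111, edgeR adjusted p 8.35e-09), and dTAG-13 raised it 1.68-fold (log2 0.75, SE 0.113, adjusted p 2.75e-07). With the other agent present, the rises were 1.43-fold for doxycycline (log2 0.52, SE 0.101, adjusted p 0.000153) and 1.26-fold for dTAG-13 (log2 0.33, SE 0.0992, adjusted p 0.00385). The dTAG-13 value among doxycycline cells fell to 0.055 after correcting for length and GC and was then not called (adjusted p 0.661). The difference between the dTAG-13 effects was -0.42 (SE 0.151, adjusted p 0.0385). It was not called with DESeq2 (-0.411, adjusted p 0.0752) or without any 1 of 8 libraries, namely replicates 1 and 3 of the control, doxycycline and doxycycline plus dTAG-13 groups and replicates 1 and 2 of dTAG-13, where it was -0.439 to -0.352.

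The thioredoxin and peroxiredoxin genes did not move together. Prdx1 (Entrez 18477, chr4:116685599-116700000) was at 383.5, 398.8 and 415.2 CPM in control, 510.0, 516.2 and 498.4 with doxycycline, 510.4, 516.7 and 509.0 with dTAG-13, and 648.6, 635.8 and 617.2 with both agents. The control libraries were the lowest, those with both agents the highest, and the single-agent groups overlapped. The log2 fold change was 0.35 for doxycycline (SE 0.024, edgeR adjusted p 5.8e-15) and 0.36 for dTAG-13 (SE 0.024, adjusted p 2.81e-16). In the presence of the other agent it was 0.31 for doxycycline (SE 0.0238, adjusted p 2.88e-13) and 0.32 for dTAG-13 (SE 0.0239, adjusted p 7.69e-15). The difference between its dTAG-13 effects was -0.041 (SE 0.0338, adjusted p 0.422), or -0.112 and called with scaling by library size only. After correcting for length and GC the dTAG-13 values of Prdx1 were 0.094 and 0.083, still called, and the doxycycline values 0.305 and 0.294.

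Txnrd1 (Entrez 50493, chr10:82833951-82897724) fell with dTAG-13. It was at 600.4, 595.1 and 570.3 CPM in control, 568.0, 549.8 and 573.4 with doxycycline, 518.3, 526.3 and 528.0 with dTAG-13, and 504.8, 496.5 and 525.6 with both. All libraries with dTAG-13 lay below all libraries without it. The log2 fold changes for dTAG-13 were -0.17 without doxycycline (SE 0.023, edgeR adjusted p 3.94e-08) and -0.15 with it (SE 0.0231, adjusted p 5.33e-07), the latter -0.065 and still called after correcting for length and GC. Scaling by library size only gave -0.076 for the former, still called. With doxycycline alone Txnrd1 was called lower at -0.062 (adjusted p 0.0328), although the libraries overlapped. Part of the Txnrd1 locus is shared with Eid3 in the annotation, and it is not known here whether reads were counted by strand.

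Srxn1 (Entrez 76650, chr2:152105524-152111376) varied least, with group means from 247.7 ± 6.49 CPM with both agents to 267.3 ± 5.62 CPM with dTAG-13 (mean ± SD, n = 3). dTAG-13 gave 0.002 without doxycycline (edgeR adjusted p 0.957; 0.093 and called with scaling by library size only) and -0.042 with it (adjusted p 0.139). Doxycycline among dTAG-13 cells gave -0.11 (SE 0.0249, adjusted p 0.000982), with no overlap between the libraries. Doxycycline against control gave a call at -0.067 (adjusted p 0.0337). The doxycycline calls against control on Srxn1 and Txnrd1 were weak. They were lost with scaling by library size only (-0.031 and -0.026), with no filter on low counts (-0.057 and -0.053) and with only the groups compared (-0.054 and -0.049). They were also lost without control replicate 1 or 2, doxycycline replicate 1 or 2, or dTAG-13 replicate 1 or 2, and that on Srxn1 also without doxycycline replicate 3 (-0.071 to -0.044 for Srxn1 and -0.057 to -0.032 for Txnrd1). For Srxn1, dTAG-13 added to doxycycline was called without control replicate 2, replicate 1 of doxycycline plus dTAG-13, or dTAG-13 replicate 1 or 2 (-0.063 to -0.056).

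In the glutathione branch, changes were small. Gclc (Entrez 14629, chr9:77754535-77794489) was at 52.5, 51.4 and 51.9 CPM in control, 58.5, 57.5 and 58.9 with doxycycline, 54.6, 56.4 and 57.4 with dTAG-13, and 52.0, 57.8 and 55.1 with both. The control libraries were below those of either single agent, and the group with both agents spanned nearly the whole range. Gclc rose with doxycycline by 0.17 (SE 0.04, edgeR adjusted p 0.00108) and with dTAG-13 by 0.11 (SE 0.0401, adjusted p 0.0144). With library size only the dTAG-13 value was 0.204, and its call was lost without control replicate 2 or dTAG-13 replicate 2 or 3 (0.089 to 0.102). For dTAG-13 added to doxycycline the value was -0.082 (adjusted p 0.0734), called without control replicate 2, doxycycline replicate 2, replicate 2 of doxycycline plus dTAG-13, or dTAG-13 replicate 1 or 2 (-0.119 to -0.096). The difference between the dTAG-13 effects was -0.20 (SE 0.057, adjusted p 0.0106), and it was not called without doxycycline plus dTAG-13 replicate 1 (-0.158).

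Gclm (Entrez 14630, chr3:122245487-122267215) was at 122.7, 126.1 and 126.8 CPM in control, 133.9, 135.5 and 130.7 with doxycycline, 116.5, 123.6 and 119.1 with dTAG-13, and 117.9, 117.5 and 111.4 with both. The doxycycline libraries stood above all others. Gclm rose with doxycycline by 0.091 (SE 0.0296, edgeR adjusted p 0.0144) and fell when dTAG-13 was added, by 0.21 (SE 0.0302, adjusted p 1.07e-07). dTAG-13 alone gave -0.064 (adjusted p 0.0607), and the difference of the dTAG-13 effects was -0.14 (SE 0.0424, adjusted p 0.011). After correcting for length and GC the Gclm values were 0.03 for doxycycline, not called, -0.093 for dTAG-13 added to it, called, and -0.057 for the difference, not called. The doxycycline call on Gclm was also lost without control replicate 1 (0.073), and that on the difference without doxycycline plus dTAG-13 replicate 3 (-0.111). dTAG-13 alone was called for Gclm without control replicate 1, any doxycycline replicate, replicate 3 of doxycycline plus dTAG-13, or dTAG-13 replicate 2 (-0.094 to -0.07). A pseudogene, Gm6061, and a non-coding gene overlap Gclm in the annotation.

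Gsr (Entrez 14782, chr8:33653238-33698162) fell with dTAG-13 in both settings. Its levels were 205.5, 211.4 and 202.7 CPM in control, 200.6, 196.3 and 207.3 with doxycycline, 172.5, 170.6 and 177.4 with dTAG-13, and 160.0, 167.3 and 168.3 with both. The 6 libraries with dTAG-13 were all below the 6 without it. The log2 fold changes were -0.25 (SE 0.0271, edgeR adjusted p 1.09e-10) and -0.28 (SE 0.0274, adjusted p 5.55e-12), and -0.286 and -0.293 after correcting for length and GC. The first was -0.161, still called, with library size only. Doxycycline gave -0.037 (adjusted p 0.316) in control cells and -0.069 (adjusted p 0.0706) among dTAG-13 cells. A pseudogene, Gm17803, and a small nucleolar RNA gene, Gm24727, overlap Gsr in the annotation. Long non-coding genes overlap Prdx1 (AV051173), Osgin1 (Gm32006) and Txnrd1 (Gm38560).

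Slc7a11 (Entrez 26570, chr3:50364936-50499087) was highest in control, at 83.3, 86.1 and 82.4 CPM, against 72.7, 71.6 and 70.0 with doxycycline, 73.5, 76.5 and 69.8 with dTAG-13, and 70.8, 69.2 and 68.9 with both. The control libraries lay above all others, and the remaining groups overlapped. Slc7a11 fell by 0.23 with doxycycline (SE 0.0358, edgeR adjusted p 1.72e-06) and by 0.20 with dTAG-13 (SE 0.0357, adjusted p 8.26e-06). The value for dTAG-13 added to doxycycline was -0.038 (adjusted p 0.376), and the dTAG-13 effects differed by 0.16 (SE 0.0514, adjusted p 0.0225). Slc7a11 has the longest transcript of the members, 9223 bases, and after correcting for length and GC its dTAG-13 values were -0.054, not called, and 0.203, called higher, with a difference of 0.258, called. With library size only, dTAG-13 alone gave -0.104 for it, still called. The call on the difference was lost if scaling used library size only (0.086) and without control replicate 2, doxycycline replicate 2, replicate 1 of doxycycline plus dTAG-13, or dTAG-13 replicate 3 (0.13 to 0.15).

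Osgin1 (Entrez 71839, chr8:119425882-119446257) was at 5.90, 6.50 and 6.92 CPM in control, 5.34, 6.43 and 6.59 with doxycycline, 4.08, 5.02 and 4.86 with dTAG-13, and 5.53, 5.50 and 5.27 with both. The dTAG-13 libraries were below all others. Osgin1 fell by 0.47 with dTAG-13 against control (SE 0.114, edgeR adjusted p 0.000482), and none of its other 3 pairwise values was called, at -0.072, -0.17 and 0.22. At its depth the standard errors were 0.109 to 0.12, against at most 0.0405 for the members other than Nqo1, and a value of 0.22 was not called.

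The effect of dTAG-13 with doxycycline, minus its effect without it, was called for 5 of the 10 members, against 22.9% of all genes. It was lower for Hmox1, Nqo1, Gclc and Gclm, against 9.64% of all genes, and higher for Slc7a11, against 13.2%. Hmox1 stood apart by size, with the other 4 between -0.42 and 0.16. The count was 2 without doxycycline plus dTAG-13 replicate 1 and 3 without doxycycline plus dTAG-13 replicate 3, which leave 2 libraries in that group.

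**Figure D3:**
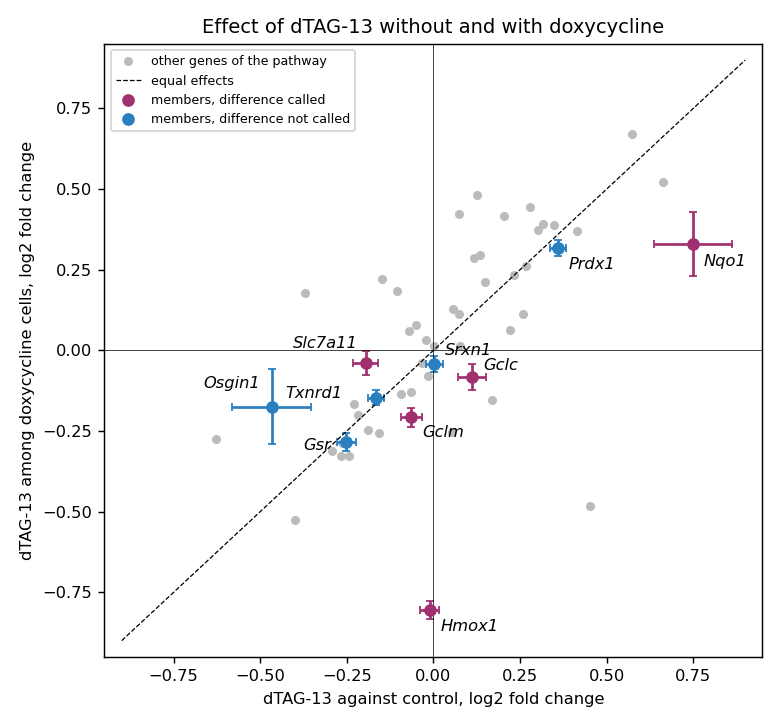
Log2 fold change of dTAG-13 without doxycycline (horizontal axis) and among doxycycline cells (vertical axis), with standard errors, for the 10 members and, in grey, 44 other tested genes of the pathway; the dashed line marks equal effects. Hmox1 lies at -0.01 and -0.80, far below the line, while Prdx1, Gsr, Txnrd1 and Srxn1 lie close to it.

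Fold changes with dTAG-13 moved with transcript length over all genes. When 11745 genes were split into eighths by length, the shortest had a median of 0.228 and the longest of -0.284 (log2) for dTAG-13 against control. These medians were 0.373 and -0.384 for dTAG-13 added to doxycycline, but -0.039 and 0.027 for doxycycline against control. They were 0.087 and -0.027 for doxycycline among dTAG-13 cells, and 0.134 and -0.059 for the difference of the dTAG-13 effects. Among the members, Nqo1 (1553 bases) and Hmox1 (1569 bases) were in the second-shortest eighth, Prdx1 (2294 bases) and Osgin1 in the third, Gclm (5589 bases) in the seventh and Slc7a11 in the longest. The fall of Hmox1 when dTAG-13 was added to doxycycline was larger after correcting for length and GC, at -0.973. After it, the rise of Prdx1 with dTAG-13 was smaller by over 3 times on the log2 scale, and that of Nqo1 without doxycycline was 0.521, still called. The correction took in GC content as well as length, and their parts in these shifts were not tested. The length eighth of Prdx1 had medians of 0.064 for dTAG-13 against control and 0.062 for dTAG-13 added to doxycycline.

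**Figure D4:**
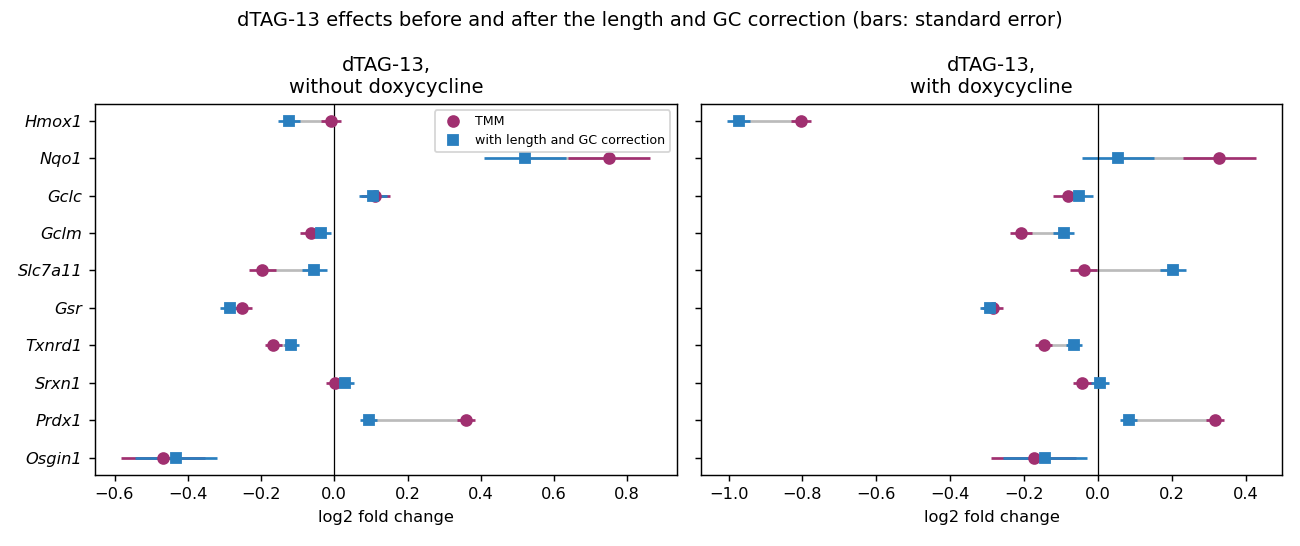
Log2 fold changes of dTAG-13 (horizontal axes) for the 10 members without and with doxycycline, with TMM scaling (circles) and with the added correction for transcript length and GC content (squares); bars are standard errors. Hmox1 among doxycycline cells goes from -0.80 to -0.97 and Gsr goes from -0.25 to -0.29 without doxycycline, while Prdx1 goes from 0.36 to 0.094 and from 0.32 to 0.083.

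Over the 12 libraries, the log2 CPM of the members did not follow a single pattern. Of 45 pairs of members, 24 had a positive Pearson r, with a median of 0.118 and a range from -0.881 to 0.951. The highest were Txnrd1 with Gsr (0.951), Nqo1 with Prdx1 (0.934) and Hmox1 with Gclm (0.91). The lowest were Nqo1 with Slc7a11 and Txnrd1 with Prdx1 (each -0.881). These values describe 4 cultures with 3 libraries each, and all pairs share the libraries and their scaling. For deviations from the group means the median r was -0.016. Over 11556 genes at a mean level of 1 CPM or more, those most like Nqo1, the member with the widest range, were Ube2l6 (r = 0.971), Lhfp (0.967) and Sparc (0.966). Those most like Txnrd1, the member with the highest mean CPM, were Pafah1b1 (0.985), Dlat (0.98) and Fam168b (0.976).

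Among the 10 regulators of NRF2, the transcript of the factor itself was higher with doxycycline and lower with dTAG-13. Nfe2l2 was at 144.7, 143.4 and 148.8 CPM in control, 171.0, 171.6 and 163.7 with doxycycline, 120.5, 125.8 and 117.0 with dTAG-13, and 135.9, 147.5 and 132.3 with both. The doxycycline libraries were the highest and the dTAG-13 libraries the lowest, and control overlapped only with the cells given both agents. Its log2 fold changes were 0.21 for doxycycline and 0.19 for doxycycline among dTAG-13 cells, and -0.26 and -0.29 for dTAG-13 without and with doxycycline, all called. With doxycycline 1 regulator was called higher and 3 lower, where 14.8% of all tested genes were called higher and 18.7% lower. The 3 were Mafk (-0.31), a small MAF partner, Rbx1 (-0.22), the RING subunit of the ligase, and Sqstm1 (-0.21), an autophagy receptor that binds KEAP1. The other 6, Keap1, Cul3, Bach1, Mafg, Maff and Nfe2l1, lay between -0.077 and 0.054.

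With dTAG-13 against control, 1 regulator was called higher and 6 lower, where 30% of all tested genes were called higher and 32.1% lower. The higher one was Sqstm1 at 0.073. The lower ones were Nfe2l2, Mafk (-0.37), Cul3 (-0.29), the related factor Nfe2l1 (-0.27), Mafg (-0.24) and Keap1 (-0.23). Rbx1, Maff and Bach1 were not called, at 0.074, 0.002 and -0.065. With library size only these calls held, but at -0.174 for Nfe2l2, -0.136 for Keap1, -0.154 for Mafg, -0.176 for Nfe2l1 and 0.165 for Sqstm1. After correcting for length and GC Keap1 (-0.051), Mafg (0.01) and Nfe2l1 (-0.043) were not called, while Nfe2l2 (-0.384) and Cul3 (-0.42) were. With dTAG-13 added to doxycycline, 3 regulators were called higher and 6 lower, where 30.7% of all tested genes were called higher and 33.4% lower. Rbx1 (0.42), Mafk (0.18) and Sqstm1 (0.11) were higher. Nfe2l1 (-0.33), Mafg (-0.33), Cul3 (-0.31), Nfe2l2, Keap1 (-0.16) and Bach1 (-0.13) were lower, with Maff not called at 0.015. In this comparison the correction left Keap1 at 0.038 and Mafg at -0.024, not called, and turned Bach1 to 0.128, called higher. It left Nfe2l1 called at -0.063 and Rbx1 at 0.183, each under its uncorrected size by over 1.5 times, and raised Mafk to 0.304. Among dTAG-13 cells, doxycycline went with higher Mafk (0.24), Nfe2l2 and Rbx1 (0.12) and lower Sqstm1 (-0.17), and the other 6 lay between -0.064 and -0.007. Of all tested genes, 10.7% were called higher and 9.64% lower in that comparison. The Rbx1 call there was lost if scaling used library size only (0.09), after the correction (0.083), without doxycycline plus dTAG-13 replicate 3 (0.103) and without dTAG-13 replicate 3 (0.104). Between the dTAG-13 effects, Mafk (0.55) and Rbx1 (0.35) differed, and the other 8 were not called, where 22.9% of all tested genes were called.

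The other 36 genes of the pathway were grouped by role, and 34 of them were tested. Gsta4 had 1 to 10 reads per library and Slc40a1, the iron exporter, none. Over all 46 related genes, regulators included, 21 of 44 tested were called with doxycycline (10 higher, 11 lower), 33 with dTAG-13 (18 and 15), 35 with dTAG-13 added to doxycycline (20 and 15), and 21 with doxycycline among dTAG-13 cells (14 and 7). The difference between the dTAG-13 effects was called for 13, 9 higher and 4 lower. Over all tested genes the shares called in these 5 comparisons were 33.5%, 62.1%, 64.1%, 20.4% and 22.9%. The shares called higher were 14.8%, 30%, 30.7%, 10.7% and 13.2%, and those called lower 18.7%, 32.1%, 33.4%, 9.64% and 9.64%. The counts by role that follow stand beside these shares and were not tested as groups. Medians were -0.013, 0.055, 0.071, 0.037 and 0.015 in that order.

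In the glutathione system, 9 of 10 genes were tested. Gstm1, a glutathione transferase, rose with each agent alone and fell when dTAG-13 was added to doxycycline. It was at 7.37, 7.86 and 8.20 CPM in control, 16.2, 16.4 and 15.1 with doxycycline, 10.6, 10.8 and 10.7 with dTAG-13, and 11.46, 11.79 and 10.98 with both. The 4 groups did not overlap. The log2 fold changes were 1.03 for doxycycline (SE 0.0773, edgeR adjusted p 4.66e-14), 0.45 for dTAG-13, 0.302 after correcting for length and GC, and -0.48 for dTAG-13 added to doxycycline, with a difference of -0.93 (SE 0.111, adjusted p 2.68e-08). Gstm genes resemble each other in sequence, and how reads shared between them were counted is not known here. With doxycycline 2 genes of the group were higher and 4 lower, including Slc3a2, the partner chain of Slc7a11 (-0.24). With dTAG-13, 4 were higher and 3 lower, led by Gpx4, the lipid peroxide reductase (0.57), and Gstm1. With dTAG-13 added to doxycycline, 6 were higher and 2 lower, led by Gpx4 (0.67) and the exporter Abcc1 (-0.53, or -0.146 after the correction). With doxycycline among dTAG-13 cells, 4 were higher, among them Gpx1 (0.28) and Gss, the second enzyme of glutathione synthesis (0.21), and 1 lower. The dTAG-13 effects differed for 5, higher for 3, including Gss (0.37), and lower for 2, including Gstm1.

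Of the 13 thioredoxin and peroxide genes, 2 were higher and 3 lower with doxycycline, led by Sesn2, a stress-induced sestrin (-0.44), and Txnip, an inhibitor of thioredoxin (-0.42). With dTAG-13, 7 were higher and 3 lower, led by Sesn2 (-0.63) and the peroxiredoxin Prdx4 (0.35, or 0.096 after correcting for length and GC). Among doxycycline cells given dTAG-13, 8 were higher and 3 lower, led by Prdx2 (0.44, or 0.247 corrected) and Txn1, thioredoxin (0.42). The Txn1 call was lost after the correction, at 0.026. With doxycycline among dTAG-13 cells 3 were higher and 2 lower, led by Txnip (-0.42) and Sod1, a superoxide dismutase (0.15). The Sod1 call was lost after the correction (0.029). The dTAG-13 effects differed for 5, with Sesn2 (0.35) and Cat, catalase (-0.31), the largest.

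Of 6 genes that supply NADPH, 2 were higher with doxycycline, Me1, malic enzyme (0.17), and G6pdx, glucose-6-phosphate dehydrogenase (0.15), and Pgd was lower. With dTAG-13, 3 were higher and 3 lower, led by Idh1, isocitrate dehydrogenase (0.26, or 0.036 and not called after correcting for length and GC), and Pgd, phosphogluconate dehydrogenase (-0.22, or -0.126 with library size only). With dTAG-13 added to doxycycline none was higher and 4 were lower, led by G6pdx (-0.26) and Tkt, transketolase (-0.25, or -0.147 corrected). With doxycycline among dTAG-13 cells 3 were lower, led by Idh1 (-0.17) and Me1 (-0.16). The Idh1 call there was lost with DESeq2 (-0.165), without doxycycline plus dTAG-13 replicate 1 and without dTAG-13 replicate 1 or 3 (-0.154 to -0.141). Me1 had the only difference of the dTAG-13 effects called in this group, at -0.32.

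Of 6 tested genes of heme and iron handling, 3 were higher with doxycycline, 3 with dTAG-13, 3 with dTAG-13 added to doxycycline and 4 with doxycycline among dTAG-13 cells, and none was called lower in these comparisons. Over all tested genes the shares called lower were 18.7%, 32.1%, 33.4% and 9.64%, and those called higher 14.8%, 30%, 30.7% and 10.7%. Blvrb, a biliverdin reductase, was at 61.0 ± 1.67 CPM in control, 71.0 ± 3.48 with doxycycline, 81.3 ± 2.55 with dTAG-13 and 91.8 ± 1.34 with both (mean ± SD, n = 3). Its log2 fold changes were 0.22, 0.42, 0.37 and 0.18 in the order of the comparisons above. After correcting for length and GC its dTAG-13 values were 0.275 and 0.123, and its doxycycline value among dTAG-13 cells 0.095, all called. Blvra, the other biliverdin reductase, rose by 0.32 and 0.39 with dTAG-13, calls that were lost after the correction (0.086 and 0.074). Ftl1, the ferritin light chain, rose by 0.34 with doxycycline, and Fth1, the heavy chain, by 0.21 with doxycycline among dTAG-13 cells. None of the 6 had a called difference between the dTAG-13 effects. Blvrb and Hmox1 were called in opposite directions when dTAG-13 was added to doxycycline, at 0.37 and -0.80.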

How the data were processed

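The authors deposited raw read counts per Entrez gene ID for 12 libraries, with no normalization. Per the submitters' processing notes, bcl2fastq 2.17, featureCounts and mm10 were used, and Subread was the aligner, per the file headers. The annotation, the strand setting and the handling of multi-mapping reads are not stated. IDs were named from RefSeq GRCm38.p6 (25275 IDs) and GENCODE M21 (18), and 1886 stayed unnamed.

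Genes were filtered with filterByExpr, scaled by TMM and fitted in edgeR 4.0.16 (R 4.3.3) with 1 mean per group over all 12 libraries, using the robust quasi-likelihood F test, two-sided, with Benjamini-Hochberg adjustment over 12910 genes. SEs come from the fold change and F statistic. Alternatives were RLE factors, library size only, DESeq2 1.42.0, no filter, a filter of 1 CPM in 3 libraries, only the groups compared, a replicate block, leaving out each library, and offsets from splines (5 degrees of freedom) on transcript length and GC content. The code was tested on simulated data.

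The members and lists were chosen with earlier results of these data known. Regulators and members were always named, and for each other role the 2 called genes with the largest absolute log2 fold change and a mean of at least 1 CPM in that comparison. Gstm1 was described in every group after its values were seen. Within groups, counts of library pairs differed by more than sampling noise (chi-square per degree of freedom 2.43 to 8.82), so no library was counted as a duplicate. Pairs with replicate 3 had 8.46 and 8.82 for doxycycline plus dTAG-13, where the other pair had 2.75. They had 5.75 and 5.06 against 2.43 for doxycycline, and 4.69 and 4.49 against 2.47 for control. The pairs of the dTAG-13 group had 3.08 to 3.34.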

Additional observations from a re-analysis of the deposited data

Results flagged for a closer look

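For the following genes the effect of dTAG-13 with doxycycline differed from its effect without doxycycline by the edgeR test of the difference, on the log2 scale, at an adjusted p under 0.05. Among the members these were Hmox1 (-0.794), Nqo1 (-0.422), Gclc (-0.195), Gclm (-0.144) and Slc7a11 (0.157). Among the regulators they were Mafk (0.551) and Rbx1 (0.348). Among the named genes of the other roles they were Gstm1 (-0.932), Gss (0.37), Sesn2 (0.354), Me1 (-0.323) and Cat (-0.306).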

How the results depend on the processing

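The counts of called genes over the whole table, of called members and of called related genes stayed within 1.5 times their reported values under the 8 alternatives that keep all libraries or only the groups compared, with 1 exception. With scaling by library size only, 8 members in place of 4 were called for doxycycline among dTAG-13 cells, 2 higher and 6 lower, with Gclm (-0.087), Txnrd1 (-0.077), Slc7a11 (-0.11) and Gsr (-0.104) added. In the difference of the dTAG-13 effects it added Srxn1 (-0.114), Prdx1 (-0.112) and Gsr (-0.103). That scaling raised the median log2 fold change of all genes for dTAG-13 against control from 0.019 to 0.11. It moved the share of called genes that were higher from 44.3% to 61.3% for doxycycline, from 48.3% to 62.8% for dTAG-13, from 52.7% to 30.3% for doxycycline among dTAG-13 cells and from 57.8% to 25.2% for the difference of the dTAG-13 effects. After the length and GC correction this share was 34.2% for doxycycline and 68.8% for the difference.

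Without single libraries, the number of called members ran from 5 to 8 for doxycycline against control, 5 being without control replicate 1, and from 2 to 5 for the difference of the dTAG-13 effects.

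Of the member medians, 9 values differed from the reported ones by more than the spread between libraries. With library size only they were 0.063, 0.055, -0.094, -0.082 and -0.113 in the order of the comparisons, and after the length and GC correction -0.013 for doxycycline, -0.059 and -0.024 for the pairs with both agents, and -0.017 for the difference. Sign turned for doxycycline after the correction and for dTAG-13 with library size only. Single genes also turned sign. For dTAG-13 against control, library size only gave 0.082 for Hmox1 and 0.028 for Gclm, only the groups compared gave 0.0 for Srxn1, and the length and GC correction gave 0.01 for Mafg. With dTAG-13 added to doxycycline, the correction gave 0.006 for Srxn1, 0.203 for Slc7a11, 0.038 for Keap1 and 0.128 for Bach1. For the difference of the dTAG-13 effects, library size only gave -0.05 for Txnrd1. The cause was not tested. Without single libraries, values that turned sign ran from -0.041 to 0.024 for Hmox1 and from -0.021 to 0.006 for Srxn1 with dTAG-13, from -0.137 to 0.029 for Osgin1 with doxycycline, from -0.064 to 0.008 for Gclc with doxycycline among dTAG-13 cells, and from -0.006 to 0.048 for Txnrd1 in the difference.

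No pairing of the libraries by replicate number was seen in the correlation of their deviations from group means. That correlation weighs all tested genes alike, low counts included, so it cannot tell whether a small shared effect exists. Deviations of same-numbered libraries correlated at -0.021 to 0.08 across genes, and none of the 18 pairs exceeded 0.1. With the replicate block, 4172, 7938, 8205, 2490 and 2810 genes were called in the order of the comparisons, and 8, 7, 6, 4 and 5 members, as without it.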
